A study of Mus musculus with 12 samples.

Results

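The exon parts described here are the 376 stretches that the authors classed as A3PSS, alternative 3′ splice site, in a table of the relative use of exon parts in mouse embryonic stem cells. They were taken by that class label alone, without regard to any measured value, and belong to 374 genes, out of 138745 parts under 15139 gene names. Tmem87a and Usp22 each had 2 such parts, and every other gene had 1.

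The series holds 12 RNA-seq libraries of polyadenylated RNA, in 3 groups of 4, from the mouse embryonic stem cell line V6.5 (C57Bl/6-129). All cells carried the genotype Cdk13-/-; Cdk13 Tg+, in which the endogenous kinase gene is knocked out and a tagged Cdk13 transgene is switched on by doxycycline. The groups were cells without doxycycline for 48 h (Cdk13 depleted), cells without it for 72 h (Cdk13 depleted) and cells kept in 1 μg/mL doxycycline (Cdk13 expressed), each with 2 libraries from clone 11-8 and 2 from clone 14-1. CDK13 pairs with cyclin K and phosphorylates the tail of RNA polymerase II, and the series asked how its loss changes the transcripts made. Each clone is 1 derived line. No group held cells without the transgene taken off the drug, so loss of Cdk13 and removal of doxycycline cannot be told apart. Both times were set against the same 4 doxycycline libraries, so their values are given side by side and their likeness is not a result.

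An intron ends at its 3′ splice site, the acceptor, where the spliceosome joins the next exon after an AG dinucleotide. The U2AF proteins and the SF1 protein bind the pyrimidine tract, the AG and the branch point, the U2 snRNP then takes over the branch point, and the second catalytic step picks the AG. Where 2 usable AGs lie near each other, the same exon can begin at either, and the stretch between them is kept in or left out of the messenger RNA, which shifts the reading frame unless its length is a multiple of the codon length.

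The table on the mouse build mm9 gave, for each part, a log2 fold change of its use relative to the other parts of the gene (without over with doxycycline) and an adjusted p at each time, with no value per library. A value is therefore a change in the share of a part and says nothing of the amount of the gene's RNA, and a spread between libraries, a comparison of the clones and the depth behind each part could not be given. Cdk13 itself, measured on the same relative scale, gives no check of its own loss. A part is called changed here when its adjusted p is below 0.05.

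To see what the A3PSS parts are, their edges were matched to exons of the GENCODE M21 annotation by the pattern of exon edges within each gene, which placed 366 of the 376. For 210 of them an acceptor of an annotated exon, the outer acceptor, lay upstream within the same annotated exon. These parts were thus the body of that exon downstream of their own start, which is called the inner acceptor here. In 45 of the 210 the inner acceptor was annotated as well, and in 165 only the outer one was. Another 102 began at an annotated acceptor with none upstream, 39 overlapped exons in other ways, 15 lay outside annotated exons and 10 were not placed. The stretch between the acceptors was not itself listed beside these parts. None of the 376 touched the next part upstream or downstream, and 171 of the 189 exon bodies with a part before them carried the number next to that part. For the 210 parts the values are thus those of the exon body and not of the bases between the acceptors. In the 165 the inner acceptor rests on the start of the part alone, and whether both acceptors are used was not tested.

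**Figure D1:**
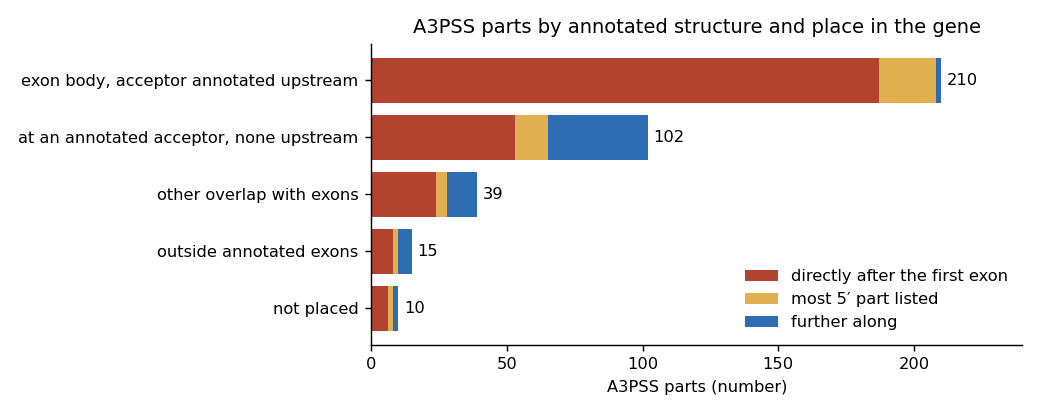
Number of A3PSS parts (horizontal axis) by their structure in GENCODE M21 (rows), with colour for the place of the part among the listed parts of its gene. Exon bodies with an annotated acceptor upstream are the longest bar, 210 parts, and 187 of them directly follow the first exon.

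The parts sat at the 5′ end of genes. Of the 376, 278 were the part directly after the first exon, 41 were the most 5′ part listed for their gene, 57 lay further along and 3 were the last part. Their median width was 123 bases, against 124 bases over all parts, with a range from 1 base (Usp22 E015) to 35453 bases (Cacna1h E029). There were 18 parts narrower than 30 bases and 17 wider than 1000 bases. The next listed part upstream ended a median of 1512 bases away and the next downstream began a median of 1004 bases away.

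The outer and inner acceptors lay up to 12 bases apart in 93 parts and further apart in 117. The nearest annotated upstream acceptor lay a median of 20.5 bases from the start of the part (210 parts, quartiles 6 and 70, range 2 to 693). In 86 parts it was 2 to 9 bases away, with peaks of 21 parts at 4 bases and 22 at 5 bases, and in 34 it was over 100 bases away. No A3PSS part had it at exactly 3 bases, the spacing of tandem acceptors that add or drop 1 codon. Another class of the table, T3PSS, which the header does not define, held that spacing in 43 of its 44 parts with an upstream acceptor, and so did 72 of 994 unclassified parts directly after a first exon. The distance was a multiple of 3 in 80 of the 210 (38.1%), against 38.5% of those 994. Where the bases between the acceptors were wholly coding (141 parts), 58 distances kept the frame and 83 shifted it. The last 2 bases before the part, searched for AG on the gene's strand only, were AG in 201 of the 210 parts (95.7%), against 807 of 992 unclassified second parts that could be read (81.4%).

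**Figure D2:**
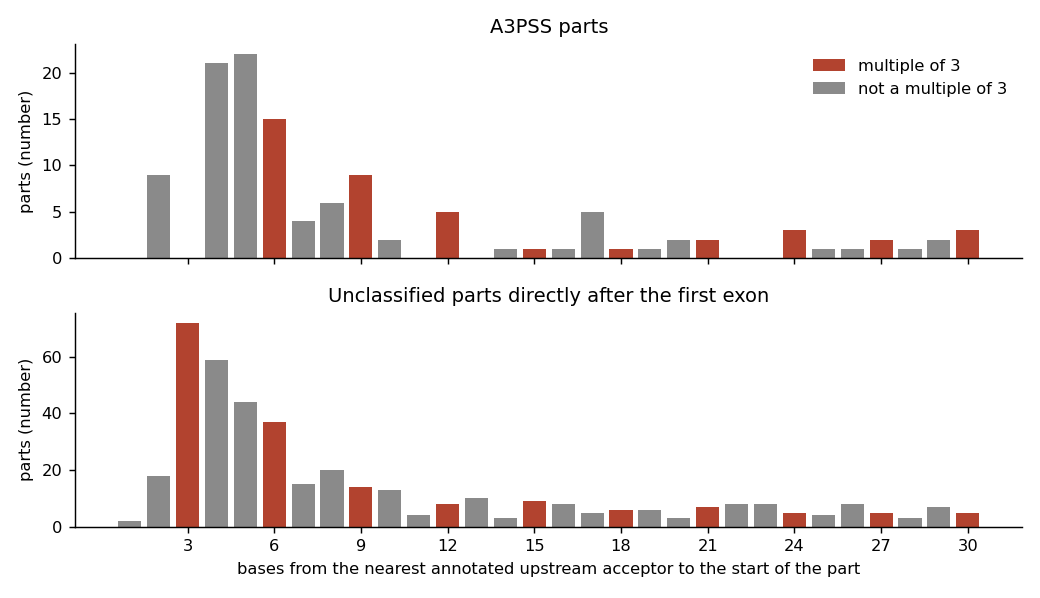
Number of parts (vertical axis) by the bases between the nearest annotated upstream acceptor and the start of the part (horizontal axis, 1 to 30 bases shown), for A3PSS parts above and unclassified parts directly after the first exon below. Red bars are multiples of 3: the bar at 3 bases is empty for A3PSS parts and holds 72 unclassified parts.

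The sequences at the start of 5 parts whose use was called changed are shown first, because they show what an A3PSS part leaves out. Capitals mark the bases between the annotated outer acceptor and the start of the part. They precede the part and are coding in GENCODE M21, and lower case marks the first 24 bases of the part. No inner acceptor is annotated for these 5 parts, and the other called exon body, Rpl9 E014, is not shown. The letters were read 5′ to 3′ along the transcript from the GENCODE M21 transcript sequences, while the positions are those of the listed part on mm9. Each run of capitals ends in AG.
Sfpq E002 (chr4:126700092-126700248, plus strand): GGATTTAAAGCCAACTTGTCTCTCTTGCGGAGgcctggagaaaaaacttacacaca
Mdn1 E002 (chr4:32749898-32750034, plus strand): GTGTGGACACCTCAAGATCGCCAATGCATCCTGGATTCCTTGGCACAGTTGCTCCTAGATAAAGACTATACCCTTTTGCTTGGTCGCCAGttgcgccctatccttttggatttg
Scd2 E002 (chr19:44369547-44369676, plus strand): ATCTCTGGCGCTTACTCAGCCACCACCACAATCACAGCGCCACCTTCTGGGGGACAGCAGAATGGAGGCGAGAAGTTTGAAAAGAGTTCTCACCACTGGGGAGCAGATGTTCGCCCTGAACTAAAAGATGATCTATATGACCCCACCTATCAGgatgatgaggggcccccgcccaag
Fabp3 E002 (chr4:129989554-129989707, plus strand): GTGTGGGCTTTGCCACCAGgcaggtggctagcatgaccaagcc
Acd E022 (chr8:108224603-108224730, minus strand): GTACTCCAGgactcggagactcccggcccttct
The capitals are 32 bases in Sfpq, 90 in Mdn1, 153 in Scd2, 19 in Fabp3 and 9 in Acd. The lengths for Mdn1, Scd2 and Acd keep the frame and those for Sfpq and Fabp3 do not.

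A second set shows close acceptor pairs with both acceptors annotated, coding bases between them and a test at 72 h, of which the distances were 12 bases or fewer. Capitals and lower case are as above.
Dok1 E004 (chr6:82982761-82983058, minus strand): AGgtggaggaaaacttgggctgtgct
Cox18 E008 (chr5:90651256-90651356, minus strand): TTAGgtggaaaacttgcaaccagaaata
Msi1 E002 (chr5:115879990-115880026, plus strand): CAAGatgttcatcggaggactcagttgg
B230208H17Rik E024 (chr2:25457941-25458070, minus strand): TGAAGattgtgatccggggtgacaggaac
Lphn2 E033 (chr3:148521697-148522497, minus strand): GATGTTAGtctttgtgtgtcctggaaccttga
These pairs lie 2 bases apart in Dok1, 4 in Cox18 and Msi1, 5 in B230208H17Rik and 8 in Lphn2, so that each choice shifts the frame. None of the 5 parts was called. In the authors' deposited table their log2 fold changes at 72 h were -0.033 for Dok1, -0.031 for Cox18, 0.046 for Msi1, 0.083 for B230208H17Rik and 0.058 for Lphn2, with adjusted p between 0.18 and 0.88. Msi1 encodes an RNA-binding protein of neural progenitors, Cox18 a factor that inserts a cytochrome c oxidase subunit into the inner mitochondrial membrane, and Dok1 an adaptor downstream of tyrosine kinases.

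Of 161 A3PSS parts tested after 48 h without doxycycline in the authors' deposited table, 2 were called, both higher. They were Sfpq E002 and Srsf2 E013, each the part directly after the first exon of a gene for a splicing factor. The share, 1.24%, stood beside 1.62% of all 42340 tested parts, of which 0.964% were called and higher and 0.633% called and lower. The share is not above the background. The median log2 fold change of the A3PSS parts was 0.016, against 0.0025 over all parts.

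Sfpq encodes an RNA-binding paraspeckle protein that takes part in splicing and transcription. Its part E002, 157 bases, rose by 0.058 on the log2 scale at 48 h (1.04-fold, adjusted p = 5.1e-05) and had 0.029 at 72 h (adjusted p = 0.41) in the authors' deposited table. The next part downstream, E003, had 0.0056 at 48 h and the first exon 0.048 (adjusted p = 0.44), and E013 fell by 0.036 (adjusted p = 0.026) in the authors' deposited table. At 72 h the parts called in Sfpq were at its 3′ end instead, with E029 at 0.36 (adjusted p = 0.0043) and E030 at 0.34 (adjusted p = 0.014) in the authors' deposited table.

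Srsf2 encodes an SR protein that binds exonic enhancers and regulates the splicing of its own transcript. Its A3PSS part E013 (chr11:116713463-116713474, minus strand) is 12 bases wide and lies inside an annotated exon without sharing either edge. It rose by 0.11 at 48 h (1.08-fold, adjusted p = 5.1e-06) and had 0.10 at 72 h (1.07-fold, adjusted p = 0.059) in the authors' deposited table, so the 2 values are close and only the first was called. The following part E012 had 0.054 and 0.052 at the 2 times, with no call. At 72 h the called part of the gene was E010, 157 bases, at 0.37 (adjusted p = 1.5e-09) in the authors' deposited table.

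Of 327 A3PSS parts tested after 72 h without doxycycline in the authors' deposited table, 10 were called, 9 higher and 1 lower. The share, 3.06%, stood beside 3.60% of all 105545 tested parts. The 9 higher were 2.75% of those tested, against a background of 2.33%, and the 1 lower 0.306%, against 1.28%. None of the 12 parts called at either time was called at both. Only 2 were called at 48 h, and the overlap over all parts was not counted, so this is not read as a trait of the class. Of the 10 called at 72 h, 6 had a test at 48 h, and 49 of the 376 were tested at neither time. The higher parts lay in Rpl36, Mdn1, Rpl9, Mgat5b, Etv2, Scd2, Fabp3, Use1 and Acd, and the lower in Ift52. Of the 9, 5 were exon bodies with an acceptor upstream (Mdn1, Rpl9, Scd2, Fabp3 and Acd), and their log2 changes ran between 0.024 and 0.34. Of the 5 called parts that changed by 0.2 or more in either direction on the log2 scale, Mdn1 E002 alone was such an exon body.

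**Figure D3:**
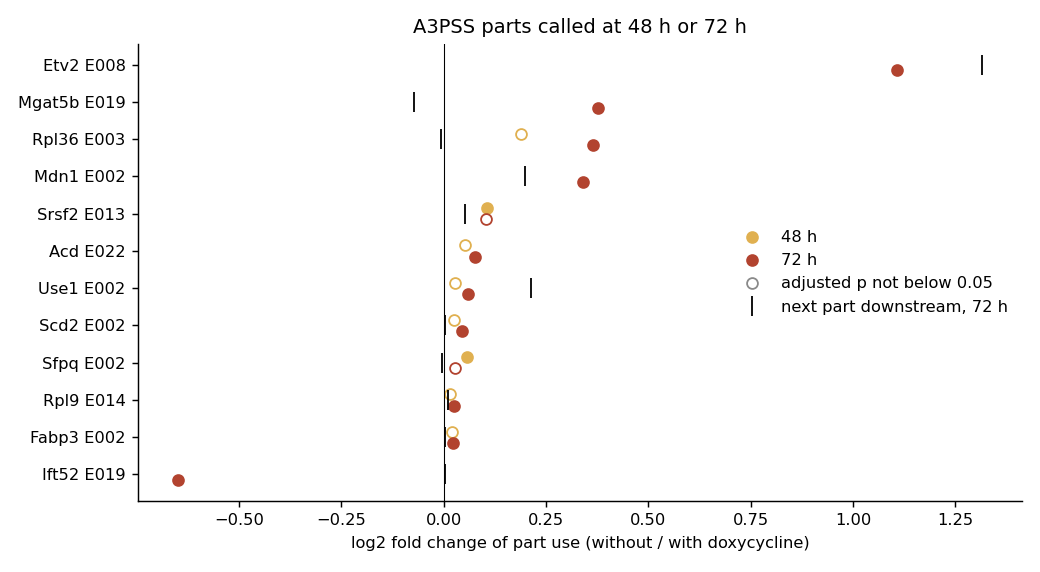
The authors' log2 fold change of part use (horizontal axis, without over with doxycycline) for the 12 A3PSS parts called at 48 h or 72 h (rows), with filled points for an adjusted p below 0.05 and open points for the others. A black tick is the next part downstream at 72 h. Etv2 lies at 1.11, Ift52 at -0.65 and 5 parts (Use1, Scd2, Rpl9, Fabp3 and Sfpq) between 0.015 and 0.060 at both times.

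Rpl36 encodes a protein of the large ribosomal subunit. Its part E003 (chr17:56753104-56753202, plus strand), 99 bases, lies outside annotated exons and begins on the base after an annotated exon end. Whether that end is a donor or the end of a transcript was not checked. Part E003 had 0.19 at 48 h (adjusted p = 0.15) and rose by 0.36 at 72 h (1.29-fold, adjusted p = 9.2e-07) in the authors' deposited table. The first exon of the gene rose by 0.012 at 72 h (adjusted p = 8.4e-04) and the exon part after E003 had -0.0062, in the authors' deposited table, so the unannotated middle part of this 3-part gene stood farthest from 0. Rpl9 encodes another large subunit protein. Its part E014 (chr5:65782185-65782224, minus strand), 40 bases with an acceptor 7 bases upstream, rose by 0.025 (1.02-fold, adjusted p = 1.6e-04) at 72 h in the authors' deposited table. Ribosomal protein genes have many processed copies in the genome, and the sources used here do not say how reads that match several copies were counted, so the Rpl36 and Rpl9 values are uncertain.

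Mdn1 encodes midasin, a very large ATPase that remodels particles of the large ribosomal subunit on their way out of the nucleus. Its second part E002, 137 bases, rose by 0.34 at 72 h (1.27-fold, adjusted p = 1.8e-05) in the authors' deposited table. It did not stand alone. Of the other 92 tested parts of the gene 7 rose and 3 fell, the rises among the parts ordered 1 to 40 and the falls among those ordered 96 to 99 of 102. The first exon rose by 0.38 (adjusted p = 0.0014) in the authors' deposited table. Part E133 fell by 0.11 (adjusted p = 0.0050) and part E137 fell by 0.17 (adjusted p = 0.021) in the authors' deposited table. The called rises in Mdn1, the A3PSS part among them, were thus all before its middle and the called falls near its 3′ end.

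Etv2, an ETS transcription factor of blood and vessel development, gave the largest rise. Its most 5′ listed part E008 (chr7:31420780-31420869, minus strand), 90 bases, shares its 3′ edge with an annotated first exon. It rose by 1.11 at 72 h (2.16-fold, adjusted p = 0.0040), and the part after it, E007, rose by 1.32 (adjusted p = 7.9e-05), while the 2 tested parts at the 3′ end had -0.10 and -0.075 in the authors' deposited table. No Etv2 part was tested at 48 h. The parts called in Etv2 were thus its 2 most 5′ ones.

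Mgat5b encodes a glycosyltransferase that branches sugar chains on proteins. Its part E019 (chr11:116829833-116834141, plus strand) is 4309 bases wide, lies outside annotated exons and begins on the base after an annotated exon end. It rose by 0.38 at 72 h (1.30-fold, adjusted p = 2.9e-04) in the authors' deposited table. Of the gene's other parts, E010 rose by 0.42 (adjusted p = 0.013) and E011 by 0.47 (adjusted p = 2.7e-05), whereas E029 fell by 0.17 (adjusted p = 0.023) and the terminal exon fell by 0.074 (adjusted p = 1.5e-04) in the authors' deposited table. The next part downstream of E019 had -0.073 and was not called.

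The fall was in Ift52, a subunit of the intraflagellar transport complex that builds cilia. Its part E019 (chr2:162857802-162857874, plus strand), 73 bases in the middle of the gene, lies outside annotated exons. It fell by 0.65 at 72 h (0.638-fold, adjusted p = 0.028) in the authors' deposited table. None of the other 12 tested parts of Ift52 was called, and their median was 0.0021, with the next part downstream at 0.0032.

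The remaining 4 changes were small. Scd2 and Fabp3 act on fatty acids, one as a desaturase of stearoyl-CoA and the other as a carrier in the cytosol. In the authors' deposited table Scd2 E002 rose by 0.045 (1.03-fold, adjusted p = 0.017) and Fabp3 E002 by 0.024 (1.02-fold, adjusted p = 0.020) at 72 h, and the terminal exon of each gene fell, by 0.054 (adjusted p = 0.013) in Scd2 and by 0.054 (adjusted p = 6.1e-04) in Fabp3. Scd2 E004 rose more than the A3PSS part, by 0.056 (adjusted p = 9.0e-05) in the authors' deposited table. Acd encodes TPP1, a protein of the telomere-capping shelterin complex, and its part E022 rose by 0.077 (1.06-fold, adjusted p = 0.044) in the authors' deposited table, the weakest of the calls. Use1 encodes a SNARE protein of the endoplasmic reticulum. Its part E002 (chr8:73891134-73891268, plus strand), a whole annotated exon of 135 bases, rose by 0.060 (1.04-fold, adjusted p = 0.023), less than the part after it, E003, at 0.21 (adjusted p = 0.014) in the authors' deposited table.

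**Figure D4:**
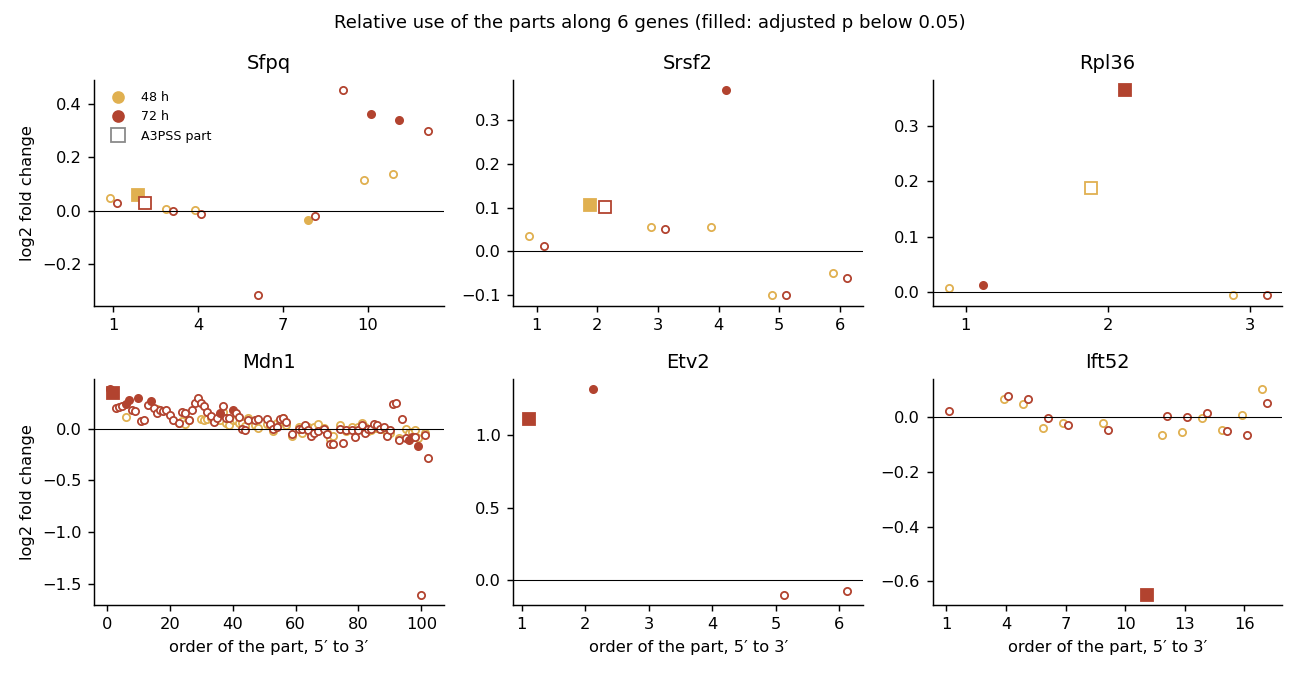
The authors' log2 fold change of part use (vertical axis) along the listed parts of 6 genes in 5′ to 3′ order (horizontal axis), at 48 h and 72 h, with squares for the A3PSS part and filled marks for an adjusted p below 0.05. In Mdn1 the first exon and in Etv2 the part after it rose as well as the A3PSS part, and in Rpl36 (0.36) and Ift52 (-0.65) the A3PSS part lay farthest from 0.

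The 5 largest changes among parts that were not called had no 48 h value and adjusted p between 0.35 and 0.60 at 72 h in the authors' deposited table. They were Sorbs3 E025 at 0.54, Cacna1h E029 at -0.46, Flii E014 at -0.44, Sez6l E009 at -0.41 and Tmem198 E002 at -0.37. Sorbs3 encodes the adhesion adaptor vinexin, Cacna1h a T-type calcium channel and Flii an actin-binding protein of the gelsolin family. The Flii part is 4 bases wide and the Cacna1h part the widest of all, and the part after Sorbs3 E025 had 0.71. The other member in a gene of the splicing lists below, the 3-base Hnrnpa1 E003, had 0.023 at 48 h and 0.014 at 72 h (adjusted p = 0.75) in the authors' deposited table. Hnrnpa1 encodes an RNA-binding protein that represses nearby splice sites, and it too has processed copies. In Tmem87a the 2 members had 0.087 and -0.041 at 72 h, neither called, and of the Usp22 pair only E019 was tested, at 0.038 (adjusted p = 0.23) in the authors' deposited table.

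Over all members with a value at 72 h the median log2 fold change was 0.029 (326 parts, quartiles -0.0078 and 0.077), and 233 of them (71.5%) were positive, against a median of 0.0080 and 54.6% positive over all parts. Unclassified parts that also directly follow a first exon gave 0.031 and 69.0%, and A3PSS parts in that place gave 0.029 and 72.5%. At 48 h the corresponding medians were 0.022 for the unclassified second parts and 0.020 for A3PSS parts in that place. The most 5′ A3PSS parts had a median of 0.0014 at 72 h. Those further along had one of 0.037 (44 parts, 81.8% positive), against 0.0064 and 54.0% for unclassified parts not directly after a first exon. At 48 h the A3PSS parts further along had a median of 0.010 (20 parts) and those unclassified parts 0.0018. At 72 h A5PSS parts, the authors' class for alternative 5′ splice sites, had a median of 0.024. Cassette exons, which are skipped or included whole, had one of 0.0057. Directly after the first exon the shift of the A3PSS parts was thus about as large as that of unclassified parts. Further along, the A3PSS median was larger than that of unclassified parts elsewhere. Neither comparison was tested, because parts are not replicates.

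**Figure D5:**
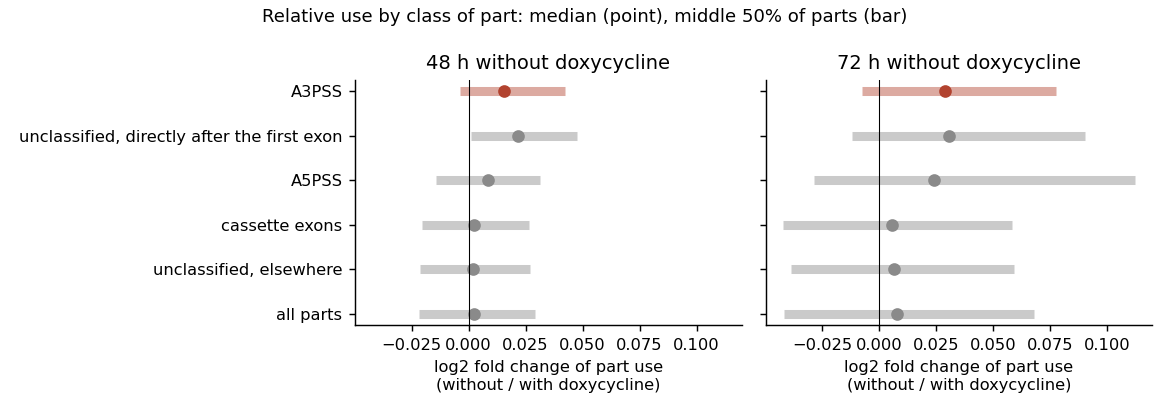
Median (point) and middle 50% of parts (bar) of the authors' log2 fold change of part use (horizontal axis, without over with doxycycline) at 48 h and 72 h, for A3PSS parts in red and other classes of parts in grey. The A3PSS medians, 0.016 and 0.029, lie beside those of unclassified parts directly after the first exon, 0.022 and 0.031.

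Calls among A3PSS parts are set beside those of the parts most like them. At 72 h the 247 tested A3PSS parts directly after the first exon gave 7 calls higher and 0 lower in the authors' deposited table, while 5207 unclassified parts in that place gave 229 higher and 27 lower. A5PSS parts gave 35 higher and 8 lower of 1397, and cassette exons 45 higher and 17 lower of 2631. The shares called in either direction were 2.83%, 4.92%, 3.08% and 2.36% in that order, against 3.60% of all tested parts. The 0 is a count at the authors' threshold, and unadjusted p-values were not used here. No difference between these classes was tested.

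Within a gene, the A3PSS part was read against its neighbours. It exceeded the next part downstream by a median of 0.0077 at 48 h (118 pairs, 60.2% positive) and 0.0071 at 72 h (288 pairs, 54.2% positive). These pairs cover A3PSS parts in all places. A3PSS parts directly after the first exon exceeded theirs by 0.011 at 48 h (96 pairs) and 0.010 at 72 h (218 pairs). Unclassified second parts exceeded theirs by 0.011 at both times. Relative to the first exon before it, the A3PSS part differed by a median of -0.018 at 48 h (103 pairs) and -0.015 at 72 h (236 pairs), against -0.015 and -0.017 for unclassified second parts. For A3PSS parts directly after the first exon, the medians of these differences therefore gave the order first exon, A3PSS part and next part from high to low.

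The members were also split by the distance between the acceptors. At 72 h the 80 parts with a distance that is a multiple of 3 had a median of 0.026 and 3 calls of 75 tested, and the 130 with another distance had 0.029 and 2 calls of 123. Parts with acceptors up to 12 bases apart had a median of 0.030 at 72 h, and those further apart 0.026. At 48 h the order was the other way, with 0.016 (50 parts, 64.0% positive) up to 12 bases and 0.024 (53 parts, 86.8% positive) further apart, and by frame the 48 h medians were 0.021 for multiples of 3 and 0.019 for other distances. The 45 with both acceptors annotated had a median of 0.024 at 72 h and no call among 42 tested, and the 165 with only the outer one had 0.028 and 5 calls of 156. At 48 h these medians were 0.041 over 18 parts and 0.016 over 85 parts. None of these differences was tested. The 15 parts outside annotated exons gave 3 calls of the 8 tested at 72 h, namely Rpl36, Mgat5b and Ift52, against 3.60% of all parts and 11 of 232 (4.74%) unclassified second parts outside annotated exons. With 8 tested parts, this share is a description only. The absence of a call says only that the adjusted p did not pass, at a depth that is unknown here.

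Antisense and overlapping genes could blur some members. Of the 366 placed parts, 18 overlapped an exon of another gene on the opposite strand and 1 an exon on the same strand. None of the 12 called parts did. The libraries were made with a stranded kit, per the labels' protocols, but the sources used here do not say whether counting used the strand.

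The genes that choose 3′ splice sites were themselves measured in the table. Of a list for recognition (U2AF, SF1, the SF3 subunits of the U2 snRNP and related helicases and RBM proteins), 22 genes were tested, and 5 had a called part at 48 h and 13 at 72 h. Of all genes tested, 7.12% had a called part at 48 h and 19.1% at 72 h, which does not allow for the number of parts per gene. Genes with a rise or with a fall were not counted over all genes. The counts by direction given for the lists are therefore not read as a trait of a list. In the recognition list 1 gene had a part that rose at 48 h and 5 had one that fell. At 72 h these were 11 and 7 genes, a gene with both being counted in each direction. By lowest adjusted p they were led by Sf3a1 E008 (0.054, adjusted p = 1.0e-06), Rbm10 E010 (0.52, adjusted p = 8.8e-06), Rbm5 E024 (0.52, adjusted p = 1.1e-05) and Sf3b2 E012 (0.058, adjusted p = 3.9e-05) in the authors' deposited table. The Rbm10 and Rbm5 parts are in the class of detained introns, which are introns kept in otherwise spliced RNA, and the Sf3b2 part is a first exon.

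Of 7 tested genes for the catalytic steps, 1 had a called part at 48 h, which rose, and 3 had one at 72 h, all 3 with a part that rose and 2 also with one that fell. By lowest adjusted p at 72 h they were Dhx16 E004 (0.22, adjusted p = 5.0e-08), Dhx35 E016 (0.81, adjusted p = 2.1e-04) and Prpf8 E050 (-0.098, adjusted p = 3.8e-04) in the authors' deposited table, and Dhx8 E006 had 0.075 (adjusted p = 0.051), just outside the threshold. DHX16 is the helicase that readies the spliceosome for the first step, DHX8 releases the spliced RNA, and PRPF8 lines the catalytic centre. The regulators are SR proteins, hnRNP proteins and other splicing factors. Of their genes, 25 were tested at 48 h and 30 at 72 h, and 5 and 18 had a called part. At 48 h 4 of these had a part that rose and 1 one that fell, and at 72 h 16 and 10 did. At 72 h the lowest adjusted p were in Srsf6 E003, a cassette exon (0.54, adjusted p = 4.6e-11), Ptbp1 E001, a first exon (0.18, adjusted p = 4.4e-10), Srsf2 E010 (0.37, given above) and Mbnl2 E012, a detained intron (0.49, adjusted p = 2.4e-05) in the authors' deposited table. Srsf2 and Hnrnpa1 are the listed genes that hold an A3PSS part. Srsf2 counts among the regulators called at 48 h through that part, E013, and no listed gene was called through an A3PSS part at 72 h. Whether the other changes bear on the A3PSS parts was not tested.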

How the data were processed

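RNA of the 12 libraries was measured by the authors as the use of exon parts. The authors ran DEXSeq on exon parts, per the file headers, and deposited for each part and time a log2 fold change (Cdk13-depleted over Cdk13-expressing) with its adjusted p-value. The submitters' processing notes list STAR 2.4.1d and mm9. The sources used here do not give the counting, annotation, strand setting, DEXSeq version, any shrinkage or whether the model had a clone term.

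Parts of the class A3PSS were taken and called at the authors' adjusted p below 0.05, and no test was added. The class label alone picked the members, and the class, the gene lists and the comparisons were chosen with earlier results of these data known. Named were all called members, the 5 largest changes not called, members in the gene lists, and up to 4 genes per list by adjusted p. The 5 close acceptor pairs, Tmem87a, Usp22 and neighbouring parts of called members fall outside that rule and were chosen, by structure or place, after their values were seen. Parts were ordered 5′ to 3′ by strand.

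Coordinates are those of the table, counted from 1. No mm9 genome was used. Parts were set on GENCODE M21 exons by the 1 offset per gene at which the most part edges met exon edges (at least 4, and at least 2 times the next best), in 348 of 374 genes, or by the offset shared by both neighbouring placed genes in 16; 371 gene names were found, 33 by an older name. In 346 of the 348 genes the offset equalled that of a placed gene beside it. Python 3.11.15, pandas 2.3.3, numpy 2.4.6 and matplotlib 3.10.9 were used. Alternatives changed the threshold, the width and the place of the parts.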

Additional observations from a re-analysis of the deposited data

How the results depend on the processing

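Of 25 alternatives to the counts and medians of A3PSS parts, 17 left the count within 1.5 times or the median within that range, 8 moved it and none turned a direction. At 48 h the 2 calls became 5 at an adjusted p below 0.1, and 1 among parts of at least 20 bases, since Srsf2 E013 is narrower. At 72 h the 10 calls became 5 at an adjusted p below 0.01, 6 among parts tested at both times, 5 among changes of 0.2 or more in either direction on the log2 scale, and 5 among exon bodies with an annotated acceptor upstream, an alternative chosen after seeing the data, as were those on place and on parts over 1000 bases. Alternatives that keep fewer parts can only hold or lower a count. The share called was 3.73% of the 161 parts tested at both times and 2.53% of the 198 exon bodies, beside 3.06% of all 327. Set against the median of the gene's other parts instead of the next part downstream, the difference was 0.015 at 48 h and 0.026 at 72 h. The difference from an abutting exon part could not be had, because no A3PSS part touches another. No paired analysis was possible because the table holds 1 value per comparison and none per library, and fits without a replicate or with another tool were not run for the same reason. Depth behind each part is unknown, so parts without a call may have had too few reads.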

Other observations

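The header of the authors' deposited table does not define the class T3PSS, which it gives to 57 parts. Of the 55 placed on annotated exons, 44 had an acceptor upstream in the same exon, and in 43 it was exactly 3 bases away, a distance that no A3PSS part had. At 72 h 47 of the T3PSS parts were tested in the authors' deposited table, and 3 were called higher and 0 lower. Over all tested parts 2.33% were called higher and 1.28% lower. With 47 tested parts, these counts are a description only.

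Of the placed A3PSS parts, 28 began on the base after an annotated exon end. Ends of last exons were counted too, so such an end need not be a donor. Of these parts 14 were tested at 72 h, and 2 were called higher (Rpl36 and Mgat5b) in the authors' deposited table. This was 14.3%, against 2.33% of all tested parts called and higher. Both are also among the 3 calls outside annotated exons given above. The 14 parts had a median of -0.011 at 72 h, with 7 positive, against 0.0080 over all parts. With 14 tested parts, the share of 14.3% is a description only.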
